A study of Mus musculus with 3 samples.

Results

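Serum amyloid A and 2 further acute-phase genes, Saa1, Saa2, Saa3, Lbp and Cp, were examined in kidney RNA of mice with anti-GBM glomerulonephritis. They are 5 of the 10698 genes that the platform annotation names, found by symbol among rows that name a single gene, and they hold 7 of the 16281 rows of the table. The genes were chosen by their log ratios on the same 3 arrays that are described here, so what follows on them is a description with no test. The 3 animals were BALB/c mice, numbered 11, 12 and 13, whose kidneys were taken 1 day after injection of an antibody to the glomerular basement membrane, or GBM, the filter layer of the glomerulus. Each mouse had an array of its own, with its RNA in the red Cy5 channel and kidney RNA pooled from 5 normal BALB/c mice in the green Cy3 channel. The age of the mice, the source of the antibody and any injection given to the normal mice are not stated in the labels.

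The acute-phase response is the change in secreted proteins that follows infection or tissue injury, and the liver is its main source. Cytokines such as interleukin 6, interleukin 1 and tumour necrosis factor drive it through the transcription factors STAT3, NF-kB and C/EBP. Serum amyloid A proteins are small apolipoproteins of high-density lipoprotein that attract white blood cells, and their deposits form the amyloid that can damage the kidney. Saa1 and Saa2 are the classical liver forms, while Saa3 is known from macrophages, fat and epithelia. Lbp, the lipopolysaccharide-binding protein, hands bacterial endotoxin to CD14 and the receptor TLR4, and Cp, ceruloplasmin, carries copper and oxidises iron so that transferrin can take it up.

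The serum amyloid genes lie side by side on chromosome 7. In the RefSeq order of GRCm38.p6 they follow one another as Saa3, Saa4, the pseudogene Saa-ps, Saa1 and Saa2, with a non-coding gene between Saa3 and Saa4. RefSeq lists Saa2 as an older symbol of Saa1 and Saa1 as an older symbol of Saa2, so the names of this pair may be exchanged in older sources. The 250 bases upstream of the start of Saa1 and of Saa2 were 94.8% identical in a global alignment, against 52.2% for Saa1 and Saa3. Gaps filled 2 of 251 columns of the first alignment and 90 of 295 of the second, so 52.2% alone does not show likeness. These upstream sequences are shown because they let the alike pair be set beside the more distant Saa3 before their values are given. They are RefSeq sequences of GRCm38.p6, printed 5′ to 3′ along the strand of the gene. Capitals mark matches, on either strand, to TTGCNNAA, a pattern bound by C/EBP.
Saa1, chr7:46742981-46743230, minus strand: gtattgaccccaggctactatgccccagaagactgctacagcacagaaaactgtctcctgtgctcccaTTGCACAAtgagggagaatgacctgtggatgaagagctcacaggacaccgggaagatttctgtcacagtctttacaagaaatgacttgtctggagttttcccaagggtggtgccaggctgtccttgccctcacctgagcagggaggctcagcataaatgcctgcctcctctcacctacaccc
Saa2, chr7:46751583-46751832, plus strand: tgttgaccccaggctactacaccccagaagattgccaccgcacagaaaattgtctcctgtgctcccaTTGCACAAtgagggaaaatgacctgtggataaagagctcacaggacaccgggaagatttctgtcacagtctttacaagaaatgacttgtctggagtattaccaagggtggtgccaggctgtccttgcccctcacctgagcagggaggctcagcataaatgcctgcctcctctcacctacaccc
Saa3, chr7:46715677-46715926, minus strand: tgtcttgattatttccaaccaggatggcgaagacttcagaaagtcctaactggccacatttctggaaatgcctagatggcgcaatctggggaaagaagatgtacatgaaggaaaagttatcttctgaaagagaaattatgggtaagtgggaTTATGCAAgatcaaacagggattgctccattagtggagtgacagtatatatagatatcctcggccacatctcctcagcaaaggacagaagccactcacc

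Each of the 3 sequences held 1 match to the C/EBP pattern, which occurred in 9.56% of 32851 upstream sequences of the same length. In Saa1 and Saa2 the matched letters were the same, TTGCACAA. The NF-kB consensus and a STAT3 pattern, TTCNNNGAA, had 0 matches in the 3 sequences on either strand, and occurred in 7.25% and 7.02% of all. Cp has 2 starts in the table, of which 1 had a C/EBP match. Lbp is not among these sequences. A match shows only that these letters are present, and a missing match only that they are not in this window.

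The values are log ratios of the 2 channels on a logarithmic scale whose base is not stated, centred on the median of each array. Red over green, and so diseased kidney over normal pool, is the usual order of such ratios and the likely one here, but the direction is not stated. With the opposite order all signs would change. A fold is given below for base 2 and for base 10. An exact 0, which made up 29.5% to 33.7% of the values of an array, was read as no estimate. The same pool served on all 3 arrays and the dyes were not swapped, so the spread between normal mice is not measured and a probe that favours one dye keeps that bias. In whole-kidney RNA, a change in the number of cells of a type and a change in RNA per cell cannot be told apart, and ratios give no level against which the labelled tissue could be checked.

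Saa2 had the highest mean log ratio of the 7235 genes measured in all 3 mice. It has 2 rows, 5089 and 14545, whose probe sequences were not compared. Row 5089 stood at 1.75 in mouse 11, 2.17 in mouse 12 and 1.37 in mouse 13. Row 14545 stood at 2.12, 2.73 and 1.88 in the same order of mice. Both rows were far above 0 in every mouse, with mouse 12 highest and mouse 13 lowest on each. Row 14545 was the highest of the 9682 rows measured on all 3 arrays, and row 5089 was the fifth from the top, at 5 of 9682. Row 14545 exceeded row 5089 by 0.37, 0.56 and 0.50, a mean difference of 0.48 ± 0.10 (SD, n = 3). Among 1014 genes with exactly 2 such rows, the median difference between rows was 0.16, and 8.88% differed by more than the Saa2 rows did. In 41.9% of these genes the 2 rows lay on opposite sides of 0, which limits small ratios that rest on 1 row. Averaged over its rows, Saa2 was at 2.00 ± 0.42 (SD, n = 3). This mean corresponds to 4.01-fold in base 2 or 101-fold in base 10.

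**Figure D1:**
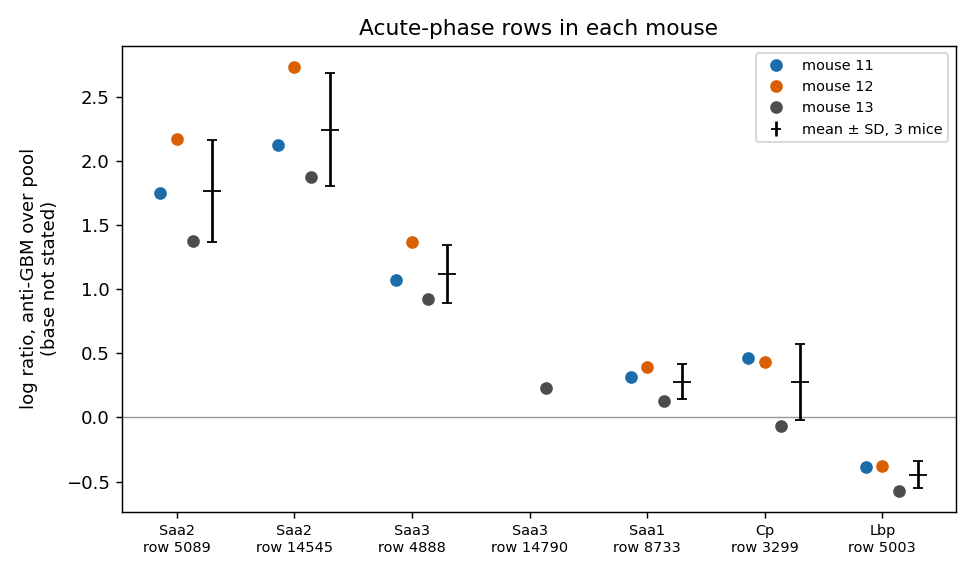
Log ratio (anti-GBM over the control pool, base not stated) of each row of the 5 genes, with 1 point per mouse and the mean ± SD over 3 mice beside rows measured in all 3. Both Saa2 rows lie between 1.37 and 2.73, Saa3 row 14790 has a value in mouse 13 only, and mouse 13 is the lowest point of every row measured in all 3 mice.

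Saa3 was the second serum amyloid gene with a large ratio. Its row 4888 stood at 1.07 in mouse 11, 1.37 in mouse 12 and 0.93 in mouse 13, a mean of 1.12 ± 0.23 (SD, n = 3), 2.17-fold in base 2 or 13.2-fold in base 10. It was at rank 19 of the 7235 genes, so 0.249% of genes were higher. The mice kept the order seen for Saa2, and the lowest Saa2 value, 1.63 for the gene in mouse 13, lay above the highest Saa3 value. The other Saa3 row, 14790, was listed at exactly 0 in mice 11 and 12 and at 0.23 in mouse 13. In mouse 13, the only mouse in which both rows have a value, they differed, at 0.93 and 0.23, and the mean of 1.12 rests on row 4888 alone. If zeros were taken as measured values, Saa3 would be at 0.60.

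Saa1 stood apart from its near copy. Its only row, 8733, was at 0.32 in mouse 11, 0.39 in mouse 12 and 0.13 in mouse 13, a mean of 0.28 ± 0.13 (SD, n = 3). This is 1.21-fold in base 2 or 1.90-fold in base 10, and 9.72% of genes were higher. All 3 mice were above 0, again with mouse 12 highest and mouse 13 lowest. Saa2 exceeded Saa1 by 1.62, 2.06 and 1.49 in mice 11, 12 and 13, and Saa3 exceeded Saa1 by 0.75, 0.98 and 0.80. Saa1 and Saa2 transcripts share long near-identical stretches, and cross-binding between their probes is possible. The ratios of both are uncertain for that reason, and the probe sequences were not used here. Of the other copies in the cluster, Saa4 had a value in mouse 13 only, 0.13, and Saa-ps was at 0.16 in mouse 11 and -0.12 in mouse 13 with 0 listed for mouse 12. Among the rows within 100 row numbers of the Saa4 row, 18 of 124 had a mean below -1.

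Cp, the copper-carrying ferroxidase, was not on the same side of 0 in every mouse. Its only row was at 0.46 in mouse 11, 0.43 in mouse 12 and -0.07 in mouse 13, a mean of 0.27 ± 0.30 (SD, n = 3). Mice 11 and 12 lay close together and mouse 13 lay on the other side of 0. Only 6.11% of genes had a larger SD than Cp. Without mouse 13 its mean was 0.45. The means of Cp and Saa1 differed by -0.004 ± 0.18 (SD, n = 3, Cp minus Saa1), less than the spread between mice.

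Lbp, the endotoxin carrier, was the only one of the 5 below 0. It stood at -0.39 in mouse 11, -0.38 in mouse 12 and -0.57 in mouse 13, a mean of -0.45 ± 0.11 (SD, n = 3), 1.36-fold lower in base 2 or 2.79-fold lower in base 10. It was at rank 225 from the bottom, with 3.10% of genes lower. Every mouse was below 0 on the only row of Lbp. No Lbp value overlapped those of the other 4 genes, but all 5 were chosen by their values on these arrays. Saa1 exceeded Lbp by 0.70, 0.77 and 0.70, a difference that varied by 0.04 (SD, n = 3). This was the smallest SD among the differences computed between pairs of the 5 genes, the others running from 0.12 to 0.30. In some stretches of the table very low rows stand close together. None of the 7 rows of the 5 genes lay in such a stretch: among the rows within 100 row numbers of each of them, 0 had a mean below -1.

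**Figure D2:**
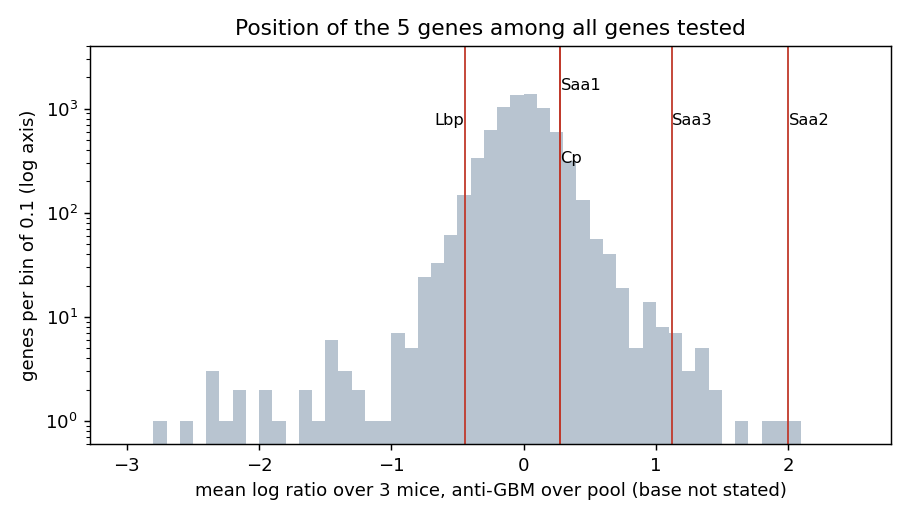
Histogram of the mean log ratio over 3 mice (x axis, base not stated) of 7235 genes, in bins of 0.1 with the number of genes on a log axis, and a red line at each of the 5 genes. Saa2 at 2.00 is the highest gene and Saa3 at 1.12 lies in the upper tail, while Saa1 and Cp, at 0.28 and 0.27, share the flank of the main body and Lbp is at -0.45.

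Mouse 13 had the lowest value of all 5 genes. Over all 7235 genes mouse 13 was lowest for 39.1%, and among the 686 genes that were higher by limma at an adjusted p under 0.05 it was lowest for 41.3%. Mouse 12 was the highest for 4 of the 5, Cp being highest in mouse 11, and over all genes it was highest for 36.3%.

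The genes nearest to each of the 5 were found by the Euclidean distance of the log ratios over the 3 mice. Nearest to Saa2 were the smooth muscle gene Tagln (1.93 ± 0.23, distance 0.36), the calcium-binding protein gene S100a6 (1.88 ± 0.14, distance 0.47) and the mitotic kinase gene Pbk (1.61 ± 0.10, distance 0.99). Few genes lie so far out, so these distances are wide. Nearest to Saa3 were the collagen cross-linking enzyme Loxl2 (1.06 ± 0.25), the intermediate filament Vim (1.15 ± 0.13) and the replication helicase subunit Mcm6 (1.20 ± 0.19), at distances from 0.17 to 0.20. Saa1 lies where genes are closer together. It had the stress-induced mTOR inhibitor Ddit4 (0.28 ± 0.13) and the TNF family ligand Tnfsf12 (0.28 ± 0.12) at distances of 0.014 and 0.015, followed by the keratin Krt10 (0.27 ± 0.16). Lbp had the cytochrome P450 Cyp2f2 (-0.42 ± 0.10), the mitochondrial enzyme Dmgdh (-0.43 ± 0.15) and the galactose enzyme Galt (-0.46 ± 0.08). Cp had Ankrd13d (0.28 ± 0.29), the sugar kinase Nagk (0.29 ± 0.32) and the RNA-editing enzyme Apobec1 (0.28 ± 0.26). The 3 neighbours of Cp all had mouse 13 below 0, as Cp did. Likeness over 3 mice is a description of these arrays (values are mean ± SD, n = 3).

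Other secreted acute-phase proteins did not share the large ratios of Saa2 and Saa3. Of 27 genes on the list, 19 had a row and 9 were measured in all 3 mice. Past an adjusted p under 0.05 by limma were 2 of these 9 upward and 2 downward, which left 5 not past it, with a median of 0.08 against -0.001 over all genes. Over all 7235 genes 19.4% were past it, 9.48% higher and 9.97% lower. The complement gene C4b was at 0.69, 0.92 and 0.25 in mice 11, 12 and 13, a mean of 0.62 ± 0.34 (SD, n = 3, adjusted p = 0.0161), and its row has 6 very low rows within 100 row numbers. Complement factor B, Cfb, was at 0.31 ± 0.17 (SD, n = 3, adjusted p = 0.0439), a call lost without mouse 11 or 13. The pentraxin Crp (-0.30 ± 0.06, adjusted p = 0.027) and the haem carrier Hpx (-0.28 ± 0.07, adjusted p = 0.0347) were lower, and both calls were lost without mouse 11, that of Crp also without mouse 13 and that of Hpx without mouse 12. The 2 rows of Hpx were unequal, at -0.54 and -0.03. All 4 calls were lost when exact zeros were kept as values (adjusted p from 0.0536 to 0.0884). The fibrinogen chain Fga was at 0.24 ± 0.19 (adjusted p = 0.0969), and at 0.34 without mouse 13 (adjusted p = 0.0492). Haptoglobin (Hp), the orosomucoids Orm1, Orm2 and Orm3, Apcs, Serpina3n and Lcn2 had no row with a value in all 3 mice.

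Proteins whose plasma level falls in the acute phase had 6 of 9 genes measured, with 1 higher, 0 lower and 5 not passing and a median of -0.08. The shares over all genes were 9.48% higher and 9.97% lower. Albumin (Alb) was at -0.17, -0.23 and -0.38 (adjusted p = 0.0511), and was lower past the test with arrays scaled to equal spread (adjusted p = 0.0459) and after subtraction of the median of neighbouring rows (adjusted p = 0.0362). The retinol carrier Rbp4 was higher, at 0.30 ± 0.09 (SD, n = 3, adjusted p = 0.0303), but the call was lost when any 1 mouse was left out, with zeros kept and after subtraction of the local median. The iron carrier Trf ranged from -0.49 to 0.17.

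**Figure D3:**
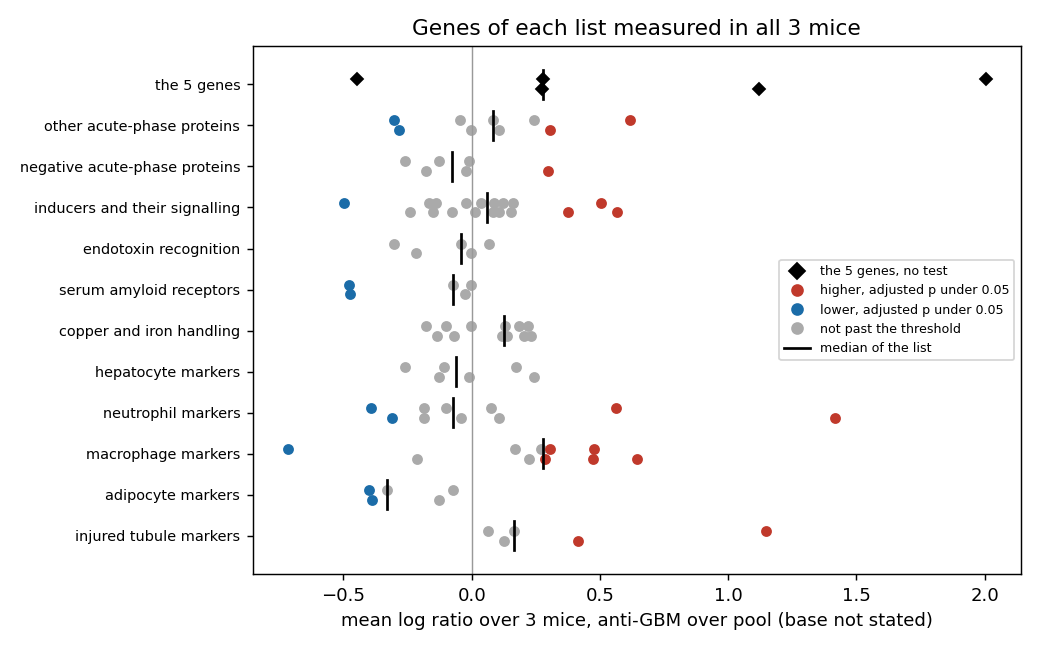
Mean log ratio over 3 mice (x axis, base not stated) of every gene measured in all 3 mice, by list, with red for higher and blue for lower past an adjusted p under 0.05, grey for not past it, black diamonds for the 5 genes, which were not tested here, and a bar at the median of each list. Saa2 at 2.00 lies to the right of every gene of the other lists, and medians of the other lists run from -0.33 to 0.28.

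The cytokines and transcription factors known to induce acute-phase genes were measured for 18 of 23 genes. Past the test were 3 upward and 1 downward, 14 were not past it, and the median was 0.06. Of all genes, 9.48% were higher and 9.97% lower. The interleukin Il1b was at 0.53, 0.44 and 0.55 in mice 11, 12 and 13, a mean of 0.51 ± 0.05 (SD, n = 3, adjusted p = 0.00534). Its 3 rows had means of 0.81, 0.36 and 0.34. The transcription factor Stat3 was at 0.41, 0.65 and 0.64, a mean of 0.57 ± 0.14 (SD, n = 3, adjusted p = 0.00536), with rows at 0.39 and 0.74. Both genes were above 0 in every mouse and on every row. The factor Cebpb was at 0.15, 0.47 and 0.50 (mean 0.37 ± 0.20, SD, n = 3, adjusted p = 0.0289), and its call was lost without mouse 12 or 13. Socs3, the feedback inhibitor that STAT3 induces, was lower, at -0.44, -0.25 and -0.81 (mean -0.50 ± 0.29, SD, n = 3, adjusted p = 0.0223). With exact zeros kept as values, the calls of Il1b and Stat3 held, while those of Cebpb (adjusted p = 0.116) and Socs3 (adjusted p = 0.0632) were lost. Mouse 13, lowest for all 5 acute-phase genes, was highest for Cebpb, by a small margin for Il1b, and lowest for Socs3. Each of the 3 rows of Il1b had another mouse highest, and Stat3 was highest in mouse 12. Of all genes, 34.3% were highest and 39.1% lowest in mouse 13.

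The means of the other 14 genes of induction lay between -0.24 and 0.16, with wider values in single mice. Tnf, the tumour necrosis factor gene, was at 0.02, 0.04 and 0.05 (mean 0.04 ± 0.01, SD, n = 3, adjusted p = 0.729). Its 3 rows had means from -0.16 to 0.15, so the small SD is that of an average of unlike rows. A row of Tnf has 18 very low rows within 100 row numbers. The interleukin 6 receptor chains Il6ra (0.01) and Il6st (-0.24), the oncostatin M receptor Osmr (0.15), the interleukin 1 receptor chains Il1r1 (0.12) and Il1rap (-0.15) and the TNF receptor Tnfrsf1a (0.09) did not pass. The kinases Jak1 (0.09) and Jak2 (-0.14) and the factors Rela (0.11), Nfkbiz (0.16), Cebpa (-0.02), Cebpd (-0.08) and Nr3c1 (-0.17), the glucocorticoid receptor, did not pass either. Row means of Il6ra ran from -0.24 to 0.20, and a row of Jak2 has 17 very low rows near it. Il6st was at 0.12, -0.52 and -0.33 in mice 11, 12 and 13, and at -0.42 without mouse 11, where it passed (adjusted p = 0.0312). Il6 itself was listed at 0 on 2 arrays, Il1a and Lif had no row with values in all 3 mice, and Nfkb1 and Osm had no row.

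**Figure D4:**
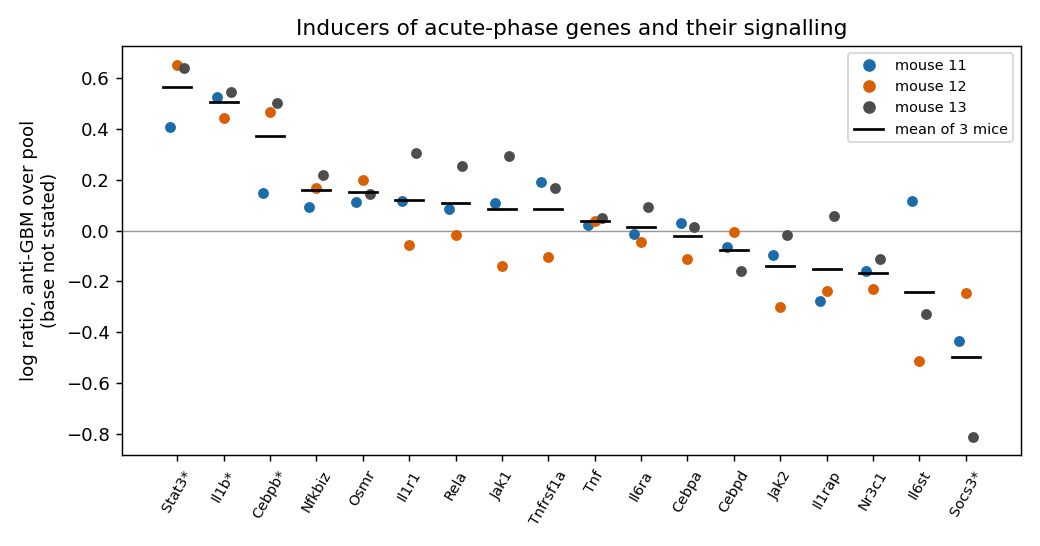
Log ratio (y axis, base not stated) of 18 inducers and signalling genes in each mouse, ordered by mean, with a bar at the mean of 3 mice and an asterisk for an adjusted p under 0.05. Stat3, Il1b and Cebpb stand above 0 in all 3 mice and Socs3 below, while the other 14 means lie between -0.24 and 0.16.

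Partners of Lbp and of serum amyloid A formed the next lists, to be read beside 9.48% of all genes higher and 9.97% lower. In the endotoxin recognition list, 5 of 10 genes were measured and 0 passed by limma, although 2 had an unadjusted p under 0.05. The TLR4 partner Ly96 was at -0.46, -0.10 and -0.35 (mean -0.30 ± 0.18, SD, n = 3, adjusted p = 0.0504), and passed as lower with equal array spread (adjusted p = 0.0453) and without mouse 12 (-0.40, adjusted p = 0.0244). The adaptor Tirap was at -0.22 ± 0.05 (adjusted p = 0.0712). Cd14 and Tlr4 had no row with values in all 3 mice. Among receptors and lipid transporters tied to serum amyloid A, 5 of 8 genes were measured, with 0 higher, 2 lower and 3 not passing. The cholesterol exporter Abca1 was at -0.63, -0.53 and -0.28 (mean -0.48 ± 0.18, SD, n = 3, adjusted p = 0.0116), and the scavenger receptor Cd36 at -0.26, -0.70 and -0.46 (mean -0.47 ± 0.22, SD, n = 3, adjusted p = 0.0167). Every mouse was below 0 for both. With zeros kept the call of Cd36 was lost (adjusted p = 0.0508). The formyl peptide receptor Fpr2, through which serum amyloid A attracts white blood cells, was at -0.03 ± 0.05 (adjusted p = 0.816), and Tlr2 was at -0.004 ± 0.12 (adjusted p = 0.973).

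Genes of copper and iron handling, the field of Cp, were measured for 12 of 18. Of these, 0 passed by limma, 3 had an unadjusted p under 0.05, and the median was 0.12. The copper pumps Atp7a and Atp7b were at 0.23 ± 0.05 (adjusted p = 0.059) and 0.20 ± 0.08 (adjusted p = 0.0888), and the haem-degrading enzyme Hmox1 was at 0.22 ± 0.10 (SD, n = 3, adjusted p = 0.077). Atp7a, which has a second row with values in 2 mice only, was at -0.57 with that row averaged in and at -0.61 with zeros kept, so its sign is not settled. The membrane relative of Cp, Heph, was at -0.14 ± 0.15, and the iron exporter Slc40a1 was at 0.18, -0.04 and 0.42. Slc11a2, also on this list, was at -0.10, an average of rows at -0.39 and 0.19. With the first listed row of each gene it passed by limma as lower, at -0.39 (adjusted p = 0.0158). Over the 6 pathway lists together, 52 of 92 genes were measured in all 3 mice. Of these, 11.5% were higher and 9.62% lower, beside 9.48% and 9.97% of all genes.

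Markers of cell types that can make acute-phase proteins were set beside these values. Their counts stand beside 9.48% of all 7235 genes higher and 9.97% lower by the same test. For hepatocytes, the main source of Saa1, Saa2, Lbp and Cp, 6 of 12 markers were measured and 0 passed by limma, 2 of them with an unadjusted p under 0.05. Their median was -0.06, and by mouse -0.07, 0.15 and -0.15 in mice 11, 12 and 13. Apoa1 was at -0.13 ± 0.12, Apoc3 at 0.17 ± 0.25, and Serpina1a was listed at 0 in all 3 mice. The row of Apoc3 has 8 very low rows within 100 row numbers. Albumin, also on this list, passed in the settings named above. Macrophage markers, with a median of 0.28, had 5 of 10 measured genes higher, 1 lower and 4 not passing. The Fc receptor Fcgr1 was at 0.65 ± 0.28 (adjusted p = 0.00883) and the protease Ctss at 0.48 ± 0.13 (adjusted p = 0.00904). The growth factor receptor Csf1r was lower, at -0.72 ± 0.33 (SD, n = 3, adjusted p = 0.00919). Lyz2 (0.47 ± 0.31), Mpeg1 (0.29 ± 0.09) and Aif1 (0.31 ± 0.17) lost their calls without mouse 11. Lyz2 and Mpeg1 also lost them without mouse 13, and Aif1 without mouse 12. The rows of Aif1 were unequal, at 0.07 and 0.55, and with the first listed row of each gene it was at 0.07 (adjusted p = 0.573). It also lost its call after local median subtraction (adjusted p = 0.0739), and these 3 lost theirs with zeros kept. Calls were also gained when a mouse was left out. Without mouse 12, C1qa (0.34, adjusted p = 0.0429) and C1qc (0.34, adjusted p = 0.0428) passed by limma as higher, and C1qb passed without mouse 13.

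Neutrophil markers had 2 of 10 measured genes higher, 2 lower and 6 not passing, with a median of -0.07. For this and the next lists, the shares over all genes were 9.48% higher and 9.97% lower. S100a9 was at 1.63, 1.64 and 0.98 in mice 11, 12 and 13 (mean 1.42 ± 0.38, SD, n = 3, adjusted p = 0.0011), with mouse 13 lowest as for Saa2 and Saa3. This rests on 1 of its 2 rows, since the other was listed at 0 in 1 mouse. With that row averaged in, S100a9 was at 1.08, and with zeros kept at 0.91 (adjusted p = 0.0296), past the test in both. S100a8 was at 0.56 ± 0.06 (SD, n = 3, adjusted p = 0.00388), but its 2 measured rows were at 1.12 and 0.01. The granule protein genes Ltf (-0.39 ± 0.05, adjusted p = 0.0116) and Ngp (-0.31 ± 0.17, adjusted p = 0.0432) were lower, Ngp having 18 very low rows near its own and losing its call without mouse 11 or 12 and after local median subtraction (-0.20, adjusted p = 0.11). With zeros kept both calls were lost (Ltf -0.30, adjusted p = 0.109, and Ngp adjusted p = 0.0877). Adipocyte markers, of interest because fat makes Saa3, had 5 of 10 genes measured, 0 higher and 2 lower, with a median of -0.33. The lipase Lpl was at -0.40 ± 0.24 (adjusted p = 0.0311) and Retn at -0.39 ± 0.27 (adjusted p = 0.0412), and both lost their calls without mouse 13, Lpl also without mouse 12, and both with zeros kept. Pparg, at -0.33 (adjusted p = 0.0721), passed by limma as lower without mouse 11, at -0.47 (adjusted p = 0.0182). Adipoq, the defining fat cell gene, was listed at 0 in all 3 mice. Markers of injured tubules had 5 of 12 genes measured, 2 higher, 0 lower and 3 not passing, with a median of 0.16. Vim was at 1.15 ± 0.13 (adjusted p = 0.000351) and the transcription factor Sox9 at 0.41 ± 0.09 (SD, n = 3, adjusted p = 0.0113). The part of any of these cell types in the ratios of the 5 genes was not tested.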

How the data were processed

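Each kidney RNA sample was measured on a 2-colour array against 1 pooled control, per the labels. The authors deposited 1 value per row and array, a score read here as a log ratio of unstated base. How that value was computed from the scans is unstated in the labels. The planned unit was a log ratio, and no conversion of the base was made. Rows were named from the platform annotation: 13738 of 16281 name 1 gene. Exact zeros were set to no estimate, arrays were centred on their medians (0.0077 to 0.0105), and rows of a gene measured on all 3 arrays were averaged. An intercept-only model was fitted to 7235 genes with limma 3.58.1 in R 4.3.3 (lmFit, eBayes, Benjamini-Hochberg, adjusted p under 0.05). On simulated data for 7235 genes it called 52 of 100 genes shifted by 0.5, 0 of 100 shifted by 0.25 and 2 of 7035 unshifted. A far smaller share of genes was shifted there than the 19.4% called in these data. The Benjamini-Hochberg cut-off depends on that share, so the simulated rates do not carry over to these data. Precision is limited by having 3 arrays. Per the labels, each array carries another animal.

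The 5 genes and the lists (6 of pathways, 5 of cell type markers) were chosen with earlier results of these data known. Named genes were the 5, up to 6 called genes per list, the inducers measured in all mice, and the 3 nearest genes to each of the 5. List members that did not pass and are named beside these were chosen after their values were seen. Upstream sequences are RefSeq's (GRCm38.p6), matched by symbol for 4 of the 5 genes and aligned with Biopython 1.88. Coordinates are given for these sequences only, since no label names a build for the probes. Alternatives were zeros kept, no centring, equal array spread, first row per gene, rows with 2 values, local median subtraction and leaving out each mouse.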

Additional observations from a re-analysis of the deposited data

How the results depend on the processing

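Over the 9 alternatives Saa2 stayed between 1.76 and 2.19, Saa1 between 0.22 and 0.35, Cp between 0.18 and 0.45 and Lbp between -0.48 and -0.38. Saa3 stayed between 1.00 and 1.22 except with exact zeros kept as values, where its row 14790 entered and the mean was 0.60. With zeros kept, 315 genes were higher and 307 lower, against 686 and 721, and in the 6 pathway lists 2 were higher and 1 lower, against 6 and 5. That setting tests 8960 genes, and the cause of the lower counts was not tested. With 1 mouse left out, 355 to 541 genes were higher and 371 to 539 lower, the fewest without mouse 11. The neutrophil protease Mmp9 (-0.04) turned to 0.27 when the first listed row of each gene was used. Sign turns of values not past the test either way are given beside the result only for Atp7a, where they were large. No paired analysis was possible because all 3 mice form 1 group. A turned ratio would turn every sign. Signal over background was not used here.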

Other observations

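Few genes flanking the serum amyloid cluster on chromosome 7 were measured. Of 15 genes on each side in the RefSeq order of GRCm38.p6, 4 were measured in all 3 mice. Saal1 and Hps5, which adjoin the cluster, were not among them. Of the 4 measured, 0 passed the test by limma, which 19.4% of all genes passed. With 4 genes, 0 passing cannot be told from that share. On the side of Saa3 these were Sergef (0.06 ± 0.23, adjusted p = 0.682) and Ush1c (0.21 ± 0.18, adjusted p = 0.126). Beyond Saa2 lay the glycolytic enzyme Ldha (-0.15 ± 0.20, adjusted p = 0.287) and the sorting protein Tsg101 (0.08 ± 0.04, SD, n = 3, adjusted p = 0.458). None of the 4 reached the mean of Saa1.

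A further row listed at 0 in most mice, as for Saa3, was seen in other genes too. Of the 100 genes with the highest means, 37 had further rows, and 22 of these 41 further rows (53.7%) were listed at 0 in 2 or 3 mice. Among the further rows of all other genes measured in 3 mice it was 937 of 2386 (39.3%), and the difference was not tested.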
